A study of Mus musculus with 20 samples.

Results

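The endothelial and angiogenesis genes were 41 genes chosen by symbol, with earlier results of these data known. They were genes of the vessel lining, of sprouting vessels, of lymphatic vessels, of leukocyte adhesion and of the mural cells that wrap vessels. All 41 had Ensembl transcripts among the 32991 genes that could be summed from the deposited transcript tables. The level of a gene was the sum of the FPKM (fragments per kilobase of transcript, scaled to the mapped fragments of the library) of its Ensembl transcripts in each mouse.

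RNA was sequenced from the colon of 20 male C57BL/6 mice, 5 in each of 4 groups. The Control group received double distilled water by gavage for 91 days, and the PZH group received PZH (Pien Tze Huang, a patent medicine of several Chinese drugs) at 250 mg/kg/d for 91 days. The AOM/DSS group received 1 intraperitoneal injection of azoxymethane (AOM, a colon carcinogen) at 12.5 mg/kg, then repeated cycles of 2% dextran sodium sulfate (DSS, which injures the colon epithelium) in the drinking water for 5 days per cycle, with double distilled water by gavage. The PZH + AOM/DSS group received AOM, DSS and PZH at the same doses, and each library was 1 mouse. Per-mouse values below follow the order of the mouse numbers, which is 17, 37, 41, 48 and 50 in Control, 8, 14, 27, 46 and 53 in PZH, 23, 30, 33, 44 and 52 in AOM/DSS, and 2, 13, 15, 35 and 36 in PZH + AOM/DSS.

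As background, new vessels sprout when vascular endothelial growth factors act on their receptors on endothelial cells, and the cells that lead a sprout make angiopoietin-2, apelin and ESM1. Angiopoietin-1 from mural cells keeps vessels at rest through the receptor TEK, and angiopoietin-2 can oppose it. Inflamed endothelium displays selectins and the adhesion molecules ICAM1, VCAM1 and MADCAM1, by which leukocytes leave the blood, and MADCAM1 is the main gut-homing address of lymphocytes.

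Of 12 colon epithelium markers, 10 or 11 stood at 0.5 FPKM or more in every mouse of each group, although the extraction notes name the abdominal aorta. One of the rest was Epcam, with a listed level of 0 for every Control mouse and of 233 to 865 FPKM in the 7 mice where it was above 0. Another was Krt8, which ranged from 0.105 to 3071 FPKM within Control. A listed 0 or a very low value can therefore not be read as absence, and the 22252 assembled transcripts without a gene name were not in the sums. The summed level of 8 smooth muscle markers was 2262 to 5218 FPKM in Control, 1050 to 2435 FPKM in PZH, 1006 to 1755 FPKM in AOM/DSS and 883 to 2323 FPKM in PZH + AOM/DSS. The summed level of 4 neutrophil markers was 0.103 to 29.6 FPKM in Control and 87.0 to 494 FPKM in AOM/DSS. Control mice 17 and 50 carried squamous epithelium markers at 222 and 194 FPKM, against 0.824 to 1.64 FPKM in the other Control mice. In the PZH + AOM/DSS group, mouse 35 had neutrophil markers at 251 FPKM, against 2.86 to 82.5 FPKM in the other 4, and squamous markers at 55.0 FPKM, against 2.41 to 8.87 FPKM. In whole tissue, a lower level from fewer cells of a type and one from less RNA per cell cannot be told apart.

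Compared with Control, 18 of the 40 members tested were higher in AOM/DSS at an adjusted P under 0.05, and none was lower. Of all 15812 genes tested, 16.4% were higher by this test and 23.6% were called in either direction. The calls were 7 of 13 genes of endothelial identity, 1 of 3 endothelial transcription factors, 1 of 5 receptors, 2 of 5 lymphatic genes, 3 of 6 ligands and tip cell genes and 4 of 5 adhesion genes tested. None of the 3 mural genes was called. The median log2 fold change was 0.40 over the members and 0.09 over all genes. Prox1, Apln, Esm1 and Ackr1 reached the filter (0.5 FPKM in at least 5 of the 10 mice) through the AOM/DSS mice, with at most 1 Control mouse at that level. Among the other 36 tested members 15 were called higher. In 15 members the AOM/DSS mice all exceeded the highest Control mouse, which held for 13% of all genes tested. The study's cutoffs, a fold change over 2 with an unadjusted P under 0.05, were applied here to gene sums on the log2(FPKM + 1) scale. That scale shrinks the folds of low genes, so the fold cutoff is stricter for them. Past these cutoffs by limma, 5 members were higher, beside 5.85% of all genes. With 1 mouse left out the count was 4 to 8, and it was 8 without Control mouse 37. The share of all genes in those fits was not taken.

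**Figure D1:**
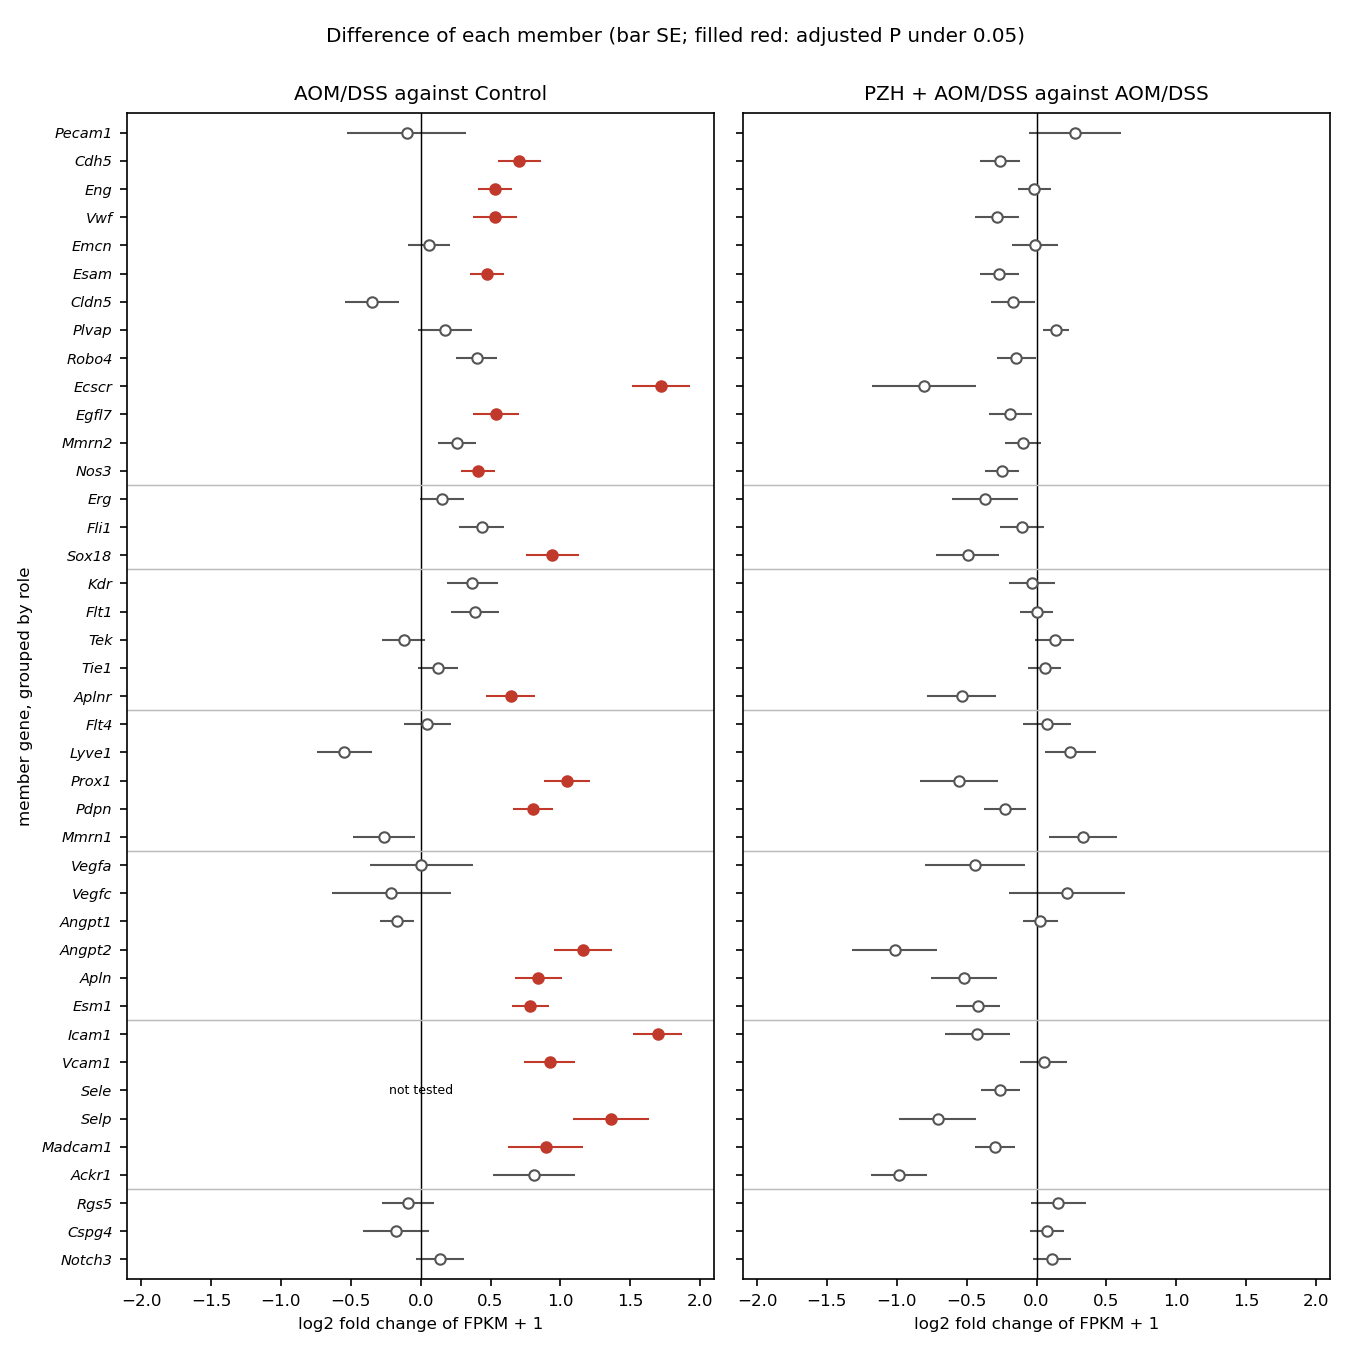
Log2 fold change of FPKM + 1 (horizontal axis) of the 41 members (vertical axis, grouped by role) in AOM/DSS against Control and in PZH + AOM/DSS against AOM/DSS. Points are limma estimates with their SE, and filled red points have an adjusted P under 0.05. The left panel has 18 red points, all to the right of 0, and the right panel has none.

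Endothelial identity genes mark the vessel lining itself. Cdh5, the cadherin of endothelial junctions, was 5.28, 3.33, 5.46, 4.92 and 6.47 FPKM in Control and 10.6, 7.73, 8.88, 7.97 and 9.05 FPKM in AOM/DSS. It was 5.03, 5.71, 4.41, 3.54 and 5.71 FPKM in PZH and 6.42, 6.79, 7.49, 9.67 and 5.93 FPKM in PZH + AOM/DSS. Every AOM/DSS mouse exceeded every Control mouse, and the log2 fold change was 0.71 ± 0.16 (SE, n = 5 per group; adjusted P = 0.00857, limma). Eng, the TGF-beta co-receptor endoglin, stood at 7.47, 6.001, 8.54, 7.26 and 7.18 FPKM in Control and at 11.3, 9.22, 10.4, 12.4 and 11.6 FPKM in AOM/DSS. Its values were 6.48, 8.97, 5.19, 7.28 and 6.47 FPKM in PZH and 10.6, 11.4, 12.6, 8.98 and 10.7 FPKM in PZH + AOM/DSS. Both AOM/DSS groups lay above Control without overlap, with a log2 fold change of 0.53 ± 0.12 (adjusted P = 0.00924) in AOM/DSS.

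Vwf, the clotting glycoprotein stored by endothelial cells, measured 5.53, 3.24, 5.28, 4.09 and 6.36 FPKM in Control and 7.11, 7.23, 8.34, 6.88 and 7.43 FPKM in AOM/DSS. It measured 5.01, 5.16, 4.29, 3.56 and 5.20 FPKM in PZH and 5.83, 4.04, 6.81, 8.03 and 5.42 FPKM in PZH + AOM/DSS. Control and AOM/DSS did not overlap (0.53 ± 0.16, adjusted P = 0.0316). Esam, an endothelial adhesion molecule, measured 5.69, 5.22, 6.27, 6.02 and 7.98 FPKM in Control, 8.61, 9.70, 8.60, 9.77 and 8.27 FPKM in AOM/DSS, 5.66, 6.08, 5.98, 5.49 and 6.13 FPKM in PZH and 8.40, 7.40, 5.91, 9.29 and 6.01 FPKM in PZH + AOM/DSS. The AOM/DSS mice were again all above Control, by 0.47 ± 0.12 on the log2 scale (adjusted P = 0.0177).

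Ecscr, a receptor found on endothelial cells and involved in their migration, had the largest log2 fold change of the members tested in AOM/DSS against Control. Its level was 8.10, 8.76, 7.97, 8.67 and 13.6 FPKM in Control, 10.3, 7.49, 8.22, 5.76 and 6.96 FPKM in PZH and 38.6, 27.7, 27.2, 25.5 and 50.2 FPKM in AOM/DSS. In PZH + AOM/DSS it was 12.8, 11.5, 22.8, 48.6 and 12.1 FPKM. The lowest AOM/DSS mouse was well above the highest Control mouse, and the log2 fold change was 1.72 ± 0.21 (adjusted P = 0.000254). Mouse 35 alone of the PZH + AOM/DSS mice reached the AOM/DSS range.

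Egfl7, an endothelial secreted factor whose gene hosts the microRNA miR-126, was 8.44, 5.90, 6.22, 6.96 and 10.2 FPKM in Control, 7.16, 9.04, 7.66, 6.60 and 6.99 FPKM in PZH, 11.6, 12.3, 11.7, 12.8 and 8.32 FPKM in AOM/DSS and 10.1, 11.1, 7.63, 12.1 and 8.40 FPKM in PZH + AOM/DSS. AOM/DSS mouse 52 fell inside the Control range, and the difference was 0.54 ± 0.16 (adjusted P = 0.0368). Nos3, endothelial nitric oxide synthase, was 1.04, 0.776, 1.45, 1.23 and 1.31 FPKM in Control, 1.29, 1.29, 1.27, 0.973 and 1.06 FPKM in PZH, 2.301, 1.86, 1.66, 1.70 and 1.78 FPKM in AOM/DSS and 1.22, 1.97, 1.37, 1.34 and 1.19 FPKM in PZH + AOM/DSS. All AOM/DSS mice lay above Control (0.41 ± 0.12, adjusted P = 0.0319). Annotated genes on the opposite strand share exon bases with Nos3, 25.2% of its exon bases in the case of Gm15587, so reads of the 2 genes may be mixed there. Of the 41 members, 11 share exon bases with another annotated gene. Among them are Angpt1 (14.2% with Gm17473), Icam1 (11.7% with Gm47079) and Selp (9.93% with Gm16548), all with genes on the opposite strand.

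The other 6 identity genes were not called. Pecam1, the junction molecule CD31, was 2.22, 2.303, 9.85, 9.58 and 2.28 FPKM in Control, 2.01, 8.89, 5.06, 1.76 and 1.41 FPKM in PZH, 4.73, 3.32, 5.68, 1.75 and 5.23 FPKM in AOM/DSS and 3.13, 3.04, 4.61, 10.3 and 5.92 FPKM in PZH + AOM/DSS. Its values split into a high and a low level within Control, which Cdh5 in the same mice did not show, and the difference was -0.10 ± 0.42 (adjusted P = 0.893). Robo4 (0.40 ± 0.15, adjusted P = 0.0733), Mmrn2, Emcn and Plvap, the diaphragm protein of fenestrated capillaries, had positive differences that did not pass. Over all mice Robo4 ranged from 1.27 to 3.39 FPKM, Mmrn2 from 2.79 to 5.68 FPKM and Emcn from 1.76 to 4.26 FPKM. Plvap and the mural gene Rgs5 were among the members with the highest levels, and Plvap averaged 29.6 ± 9.74 FPKM (SD, n = 5) in Control and 32.2 ± 2.33 FPKM in AOM/DSS. Cldn5, a claudin that seals endothelial junctions, averaged 7.04 ± 2.11 FPKM in Control and 5.28 ± 1.37 FPKM in AOM/DSS (-0.35 ± 0.19, adjusted P = 0.227).

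Among the transcription factors of endothelium, Sox18, a factor of vessel and lymphatic development, was called. It stood at 4.75, 3.81, 5.07, 4.55 and 7.05 FPKM in Control, 7.26, 8.02, 5.92, 4.60 and 6.43 FPKM in PZH, 10.6, 9.02, 7.27, 12.7 and 13.9 FPKM in AOM/DSS and 6.34, 8.20, 8.12, 10.1 and 4.19 FPKM in PZH + AOM/DSS. Control and AOM/DSS did not overlap, and the log2 fold change was 0.94 ± 0.19 (adjusted P = 0.00542). Erg and Fli1, ETS factors that maintain endothelial identity, differed by 0.15 ± 0.16 (adjusted P = 0.54) and 0.44 ± 0.16 (adjusted P = 0.0728). Erg ranged from 0.894 to 1.84 FPKM in Control and from 1.21 to 2.13 FPKM in AOM/DSS, and Fli1 from 1.37 to 2.14 FPKM and from 1.98 to 3.64 FPKM.

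Of the receptors, Aplnr, which binds apelin, was the only one called. Its level was 0.958, 0.810, 1.22, 1.29 and 1.39 FPKM in Control, 1.49, 1.97, 1.35, 1.39 and 2.55 FPKM in PZH, 1.27, 2.33, 2.36, 3.48 and 2.55 FPKM in AOM/DSS and 1.15, 0.578, 1.61, 2.71 and 0.919 FPKM in PZH + AOM/DSS. AOM/DSS mouse 23 was within the Control range, and the log2 fold change was 0.65 ± 0.17 (adjusted P = 0.0219). Kdr, the main signalling receptor for VEGF-A, was 3.49, 2.55, 5.57, 3.81 and 3.30 FPKM in Control, 3.02, 6.11, 3.70, 4.23 and 5.97 FPKM in PZH, 4.80, 4.27, 7.13, 4.68 and 4.54 FPKM in AOM/DSS and 5.35, 5.10, 6.05, 4.62 and 3.52 FPKM in PZH + AOM/DSS. The Kdr ranges of the 4 groups overlapped (0.37 ± 0.18, adjusted P = 0.174). Flt1, which binds VEGF-A tightly and signals weakly, was 3.13, 1.96, 4.74, 3.04 and 2.94 FPKM in Control, 3.20, 4.56, 3.22, 3.59 and 4.78 FPKM in PZH, 4.84, 3.56, 4.23, 4.67 and 4.43 FPKM in AOM/DSS and 4.37, 4.18, 4.82, 4.48 and 3.84 FPKM in PZH + AOM/DSS. Control mouse 41 reached the AOM/DSS range (0.39 ± 0.17, adjusted P = 0.126). The angiopoietin receptor Tek differed by -0.12 ± 0.15 (adjusted P = 0.622), and Tie1, its partner receptor, by 0.12 ± 0.14 (adjusted P = 0.584). Over the 20 mice Tek ranged from 2.01 to 4.11 FPKM and Tie1 from 3.44 to 6.28 FPKM.

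Of the 4 ligands among the members that act on VEGF or TEK receptors, Angpt2 was called and Vegfa, Vegfc and Angpt1 were not. Vegfa, the main angiogenic growth factor, was 13.6, 6.12, 4.03, 8.81 and 16.8 FPKM in Control, 12.8, 9.78, 8.30, 10.9 and 10.4 FPKM in PZH, 11.4, 15.2, 4.95, 6.93 and 8.86 FPKM in AOM/DSS and 3.05, 9.74, 4.00, 6.47 and 11.6 FPKM in PZH + AOM/DSS. Its spread within Control covered the other 3 groups but for PZH + AOM/DSS mice 2 and 15, which were lower (0.01 ± 0.37 for AOM/DSS against Control, adjusted P = 0.994). Vegfc, which drives lymphatic growth, ranged from 0.54 to 3.66 FPKM in Control and from 0.349 to 3.66 FPKM in AOM/DSS (-0.21 ± 0.42, adjusted P = 0.768). Angpt1 averaged 0.894 ± 0.228 FPKM in Control and 0.683 ± 0.206 FPKM in AOM/DSS (-0.17 ± 0.12, adjusted P = 0.346).

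Angpt2, made by sprouting and activated endothelium, was 1.16, 0.960, 1.14, 0.848 and 1.78 FPKM in Control and 4.77, 3.18, 2.07, 5.51 and 4.41 FPKM in AOM/DSS. It was 0.871, 1.05, 0.943, 0.626 and 1.11 FPKM in PZH and 0.875, 0.840, 1.04, 4.07 and 1.17 FPKM in PZH + AOM/DSS. The AOM/DSS mice were all above Control, with a log2 fold change of 1.16 ± 0.21 (adjusted P = 0.0029), while PZH + AOM/DSS mice 2, 15 and 36 lay in the Control range, mouse 13 just below it and mouse 35 above it. Within each mouse the ratio of Angpt2 to Angpt1 was 1.05 to 1.56 in Control, 0.857 to 1.77 in PZH, 2.13 to 11.3 in AOM/DSS and 0.982 to 4.57 in PZH + AOM/DSS, where mouse 35 held the highest ratio.

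Apln, which encodes apelin, a peptide of tip cells, was 0.291, 0.295, 0.547, 0.178 and 0.494 FPKM in Control, 0.502, 0.753, 0.293, 0.391 and 0.166 FPKM in PZH, 2.47, 1.13, 0.942, 1.07 and 1.83 FPKM in AOM/DSS and 0.538, 0.629, 0.445, 1.89 and 0.341 FPKM in PZH + AOM/DSS. As with Angpt2, AOM/DSS and mouse 35 were high and the other 4 PZH + AOM/DSS mice were not, and the log2 fold change in AOM/DSS was 0.84 ± 0.17 (adjusted P = 0.00523). Esm1, a secreted proteoglycan of tip cells, was 0.146, 0.287, 0.760, 0.267 and 0.364 FPKM in Control, 0.188, 0.786, 0.264, 0.853 and 1.03 FPKM in PZH, 1.60, 1.11, 1.08, 1.68 and 1.23 FPKM in AOM/DSS and 0.693, 0.274, 0.799, 1.34 and 0.749 FPKM in PZH + AOM/DSS. AOM/DSS and Control did not overlap (0.78 ± 0.13, adjusted P = 0.00222). These 2 genes stood near 1 FPKM, where the log2(FPKM + 1) scale understates a fold change.

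The 250 bases before the RefSeq start of Esm1 are printed because Esm1 moved with the other tip cell genes and its window holds the ETS core letters CAGGAA, which ETS factors such as ERG can bind. The window is chr13:113209409-113209658 on the plus strand of GRCm38.p6, 5′ to 3′, and the capitals mark CAGGAA or its reverse complement.
Esm1: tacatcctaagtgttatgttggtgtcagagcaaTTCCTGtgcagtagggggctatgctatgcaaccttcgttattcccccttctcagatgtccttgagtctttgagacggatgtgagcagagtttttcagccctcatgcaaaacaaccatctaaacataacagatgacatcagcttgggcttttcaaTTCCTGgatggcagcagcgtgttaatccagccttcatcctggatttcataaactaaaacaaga

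The reference table held such windows for 26 of the 41 members. CAGGAA, searched on both strands, was in a window of 14 of the 26, and in 28.3% of the 27025 genes with a window. The match is a description of letters and not of binding, and the motif was chosen after the sequences had been seen.

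Leukocyte adhesion genes formed the role with the highest share of calls, 4 of the 5 tested. Icam1 (chr9:21015985-21028817), the ligand of leukocyte integrins, was 3.45, 5.84, 4.91, 2.94 and 3.87 FPKM in Control and 14.97, 11.5, 17.1, 17.6 and 17.3 FPKM in AOM/DSS. It was 5.29, 4.40, 4.26, 3.35 and 5.98 FPKM in PZH and 7.14, 11.2, 17.2, 15.8 and 8.30 FPKM in PZH + AOM/DSS. Every mouse given AOM and DSS exceeded every mouse that was not, and the log2 fold change in AOM/DSS was 1.70 ± 0.18 (adjusted P = 9.45e-05). Vcam1, the ligand of the integrin alpha-4 on lymphocytes and monocytes, was 4.67, 7.67, 4.49, 3.90 and 5.21 FPKM in Control, 6.88, 3.83, 6.02, 3.70 and 4.49 FPKM in PZH, 12.9, 11.3, 12.1, 9.47 and 7.68 FPKM in AOM/DSS and 9.53, 12.3, 14.6, 9.201 and 9.74 FPKM in PZH + AOM/DSS. AOM/DSS lay above Control by 0.92 ± 0.18 (adjusted P = 0.00486), with mouse 52 just above the highest Control mouse.

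Selp, the P-selectin of activated endothelium and platelets on which leukocytes roll, was 1.87, 1.15, 0.747, 0.512 and 1.40 FPKM in Control, 1.73, 0.946, 0.758, 0.693 and 1.52 FPKM in PZH, 8.70, 2.36, 3.88, 3.70 and 4.87 FPKM in AOM/DSS and 1.62, 1.62, 2.25, 3.69 and 2.61 FPKM in PZH + AOM/DSS. Control and AOM/DSS did not overlap (1.36 ± 0.27, adjusted P = 0.00531). The summed level of 5 platelet markers was 20.2 to 72.7 FPKM in Control and 18.4 to 32.7 FPKM in AOM/DSS. Madcam1 was 2.06, 6.27, 3.55, 2.83 and 1.36 FPKM in Control, 3.80, 3.11, 5.83, 2.24 and 4.37 FPKM in PZH, 7.72, 5.08, 6.96, 5.72 and 6.13 FPKM in AOM/DSS and 5.72, 4.21, 5.06, 5.68 and 4.07 FPKM in PZH + AOM/DSS. Control mouse 37 lay inside the AOM/DSS range (0.89 ± 0.27, adjusted P = 0.0335).

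Sele, the E-selectin of inflamed endothelium, was below 0.65 FPKM in every mouse and was not tested against Control. It was 0.325, 0.0564, 0, 0 and 0.181 FPKM in Control, 0.0626, 0, 0, 0 and 0 FPKM in PZH, 0.627, 0.183, 0.523, 0.591 and 0.560 FPKM in AOM/DSS and 0.155, 0.0591, 0.314, 0.644 and 0.124 FPKM in PZH + AOM/DSS. Ackr1, the chemokine-binding receptor of venules, was 0.0132, 2.02, 0.401, 0.0135 and 0.366 FPKM in Control, 0.343, 0.0134, 0.0799, 0.661 and 1.23 FPKM in PZH, 1.12, 2.02, 0.981, 2.47 and 1.26 FPKM in AOM/DSS and 0.0140, 0.236, 0.701, 0.521 and 0.0131 FPKM in PZH + AOM/DSS. Control mouse 37 was high, and the difference in AOM/DSS was 0.81 ± 0.29 (adjusted P = 0.0682). Cadm3 on the same strand shares 25.7% of the exon bases of Ackr1, so part of these reads could belong to either gene.

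Icam1, Sele and Madcam1 share letters of the kB type, a kind of site that NF-kB factors can bind. The windows of the 2 called genes are printed to show them, as chr9:21015690-21015939 for Icam1 and chr10:79664309-79664558 for Madcam1, both on the plus strand of GRCm38.p6 (RefSeq), with matches to GGANANTCC in capitals.
Icam1: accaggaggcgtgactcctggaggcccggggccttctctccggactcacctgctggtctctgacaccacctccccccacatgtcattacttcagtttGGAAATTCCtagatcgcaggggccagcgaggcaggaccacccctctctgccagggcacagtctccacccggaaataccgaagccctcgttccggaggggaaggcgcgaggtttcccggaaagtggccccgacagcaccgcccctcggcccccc
Madcam1: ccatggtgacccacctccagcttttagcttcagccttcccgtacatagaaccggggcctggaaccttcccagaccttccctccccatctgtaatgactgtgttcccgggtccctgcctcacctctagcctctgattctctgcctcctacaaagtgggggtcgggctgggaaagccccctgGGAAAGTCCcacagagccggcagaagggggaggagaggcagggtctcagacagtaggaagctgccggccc

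GGANANTCC, searched on both strands and with no overlap with CAGGAA in these windows, was in windows of 4 of the 26 members, which also included the lymphatic gene Flt4. It was in 3.66% of the 27025 genes with a window. The letters were chosen after the sequences had been seen, so the count is a description.

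Of the lymphatic genes, Prox1 and Pdpn were called and the other 3 were not. Prox1, the regulator of lymphatic identity that is also known in colon tumour epithelium, was 0, 0.0305, 0.00325, 0 and 0 FPKM in Control and 0.763, 1.06, 0.918, 2.31 and 0.686 FPKM in AOM/DSS. It was 0.0242, 0, 0, 0 and 0.0207 FPKM in PZH and 1.55, 0, 0.0485, 0.719 and 0.226 FPKM in PZH + AOM/DSS. The groups without AOM and DSS were all at or near 0, and the AOM/DSS difference of 1.05 ± 0.17 (adjusted P = 0.00148) rests on a gene that passed the filter through the AOM/DSS mice alone. Pdpn, podoplanin, which fibroblasts and lymphatic endothelium carry, was 6.20, 7.44, 7.32, 7.04 and 7.09 FPKM in Control, 7.38, 6.498, 5.34, 7.10 and 5.71 FPKM in PZH, 17.7, 10.3, 14.2, 11.04 and 12.7 FPKM in AOM/DSS and 10.8, 11.1, 12.0, 12.1 and 9.04 FPKM in PZH + AOM/DSS. Both groups given AOM and DSS lay above both groups that were not (0.80 ± 0.14 for AOM/DSS against Control, adjusted P = 0.00272). The summed level of 6 fibroblast markers was 256 to 462 FPKM in Control and 262 to 373 FPKM in AOM/DSS. Of the 6, Col1a1 (0.95 ± 0.20, adjusted P = 0.00669) and Pdgfra (0.60 ± 0.16, adjusted P = 0.0237) were higher, Lum (-1.14 ± 0.25, adjusted P = 0.00872) and Dpt (-1.06 ± 0.26, adjusted P = 0.0132) were lower and Dcn and Col1a2 were not called, and their part in the Pdpn difference was not tested.

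Lyve1, the hyaluronan receptor of lymphatic capillaries, was 16.8, 12.1, 13.9, 10.01 and 20.2 FPKM in Control, 12.1, 13.4, 11.1, 11.9 and 11.2 FPKM in PZH, 11.4, 10.6, 11.2, 7.62 and 7.13 FPKM in AOM/DSS and 10.4, 14.2, 14.4, 9.75 and 8.84 FPKM in PZH + AOM/DSS. It had the most negative difference of the tested members in AOM/DSS, -0.55 ± 0.20, which did not pass (adjusted P = 0.0701). The ratio of Lyve1 to Cdh5 in the same mouse was 2.03 to 3.65 in Control and 0.788 to 1.37 in AOM/DSS, without overlap. Cdh5 was itself higher in AOM/DSS without overlap, so this separation is partly set by Cdh5. The levels of Lyve1 alone overlapped. Flt4, the VEGF-C receptor, differed by 0.05 ± 0.17 (adjusted P = 0.872) and Mmrn1, a lymphatic secreted glycoprotein, by -0.26 ± 0.22 (adjusted P = 0.442).

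Mural cell genes overlapped between all groups. Rgs5, a G-protein regulator of pericytes, was 30.7, 23.6, 34.8, 27.1 and 33.3 FPKM in Control, 27.9, 39.3, 27.01, 28.8 and 37.6 FPKM in PZH, 19.9, 23.5, 39.6, 25.6 and 34.5 FPKM in AOM/DSS and 28.5, 34.1, 40.6, 28.2 and 25.7 FPKM in PZH + AOM/DSS. Notch3, a receptor of vascular smooth muscle, was 2.17, 1.22, 2.40, 1.94 and 3.27 FPKM in Control, 2.54, 2.47, 1.84, 1.78 and 2.97 FPKM in PZH, 1.84, 2.41, 2.96, 2.60 and 2.51 FPKM in AOM/DSS and 2.85, 3.13, 2.87, 2.86 and 1.99 FPKM in PZH + AOM/DSS. Their differences in AOM/DSS were -0.09 ± 0.19 (adjusted P = 0.774) and 0.14 ± 0.17 (adjusted P = 0.617). Cspg4, the pericyte proteoglycan NG2, differed by -0.18 ± 0.23 (adjusted P = 0.635). The summed level of the smooth muscle markers above was lower in every AOM/DSS mouse than in every Control mouse. Single markers of that sum could overlap as these 3 genes did, such as Myh11 at 106 to 431 FPKM in Control and 51.3 to 145 FPKM in AOM/DSS.

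**Figure D2:**
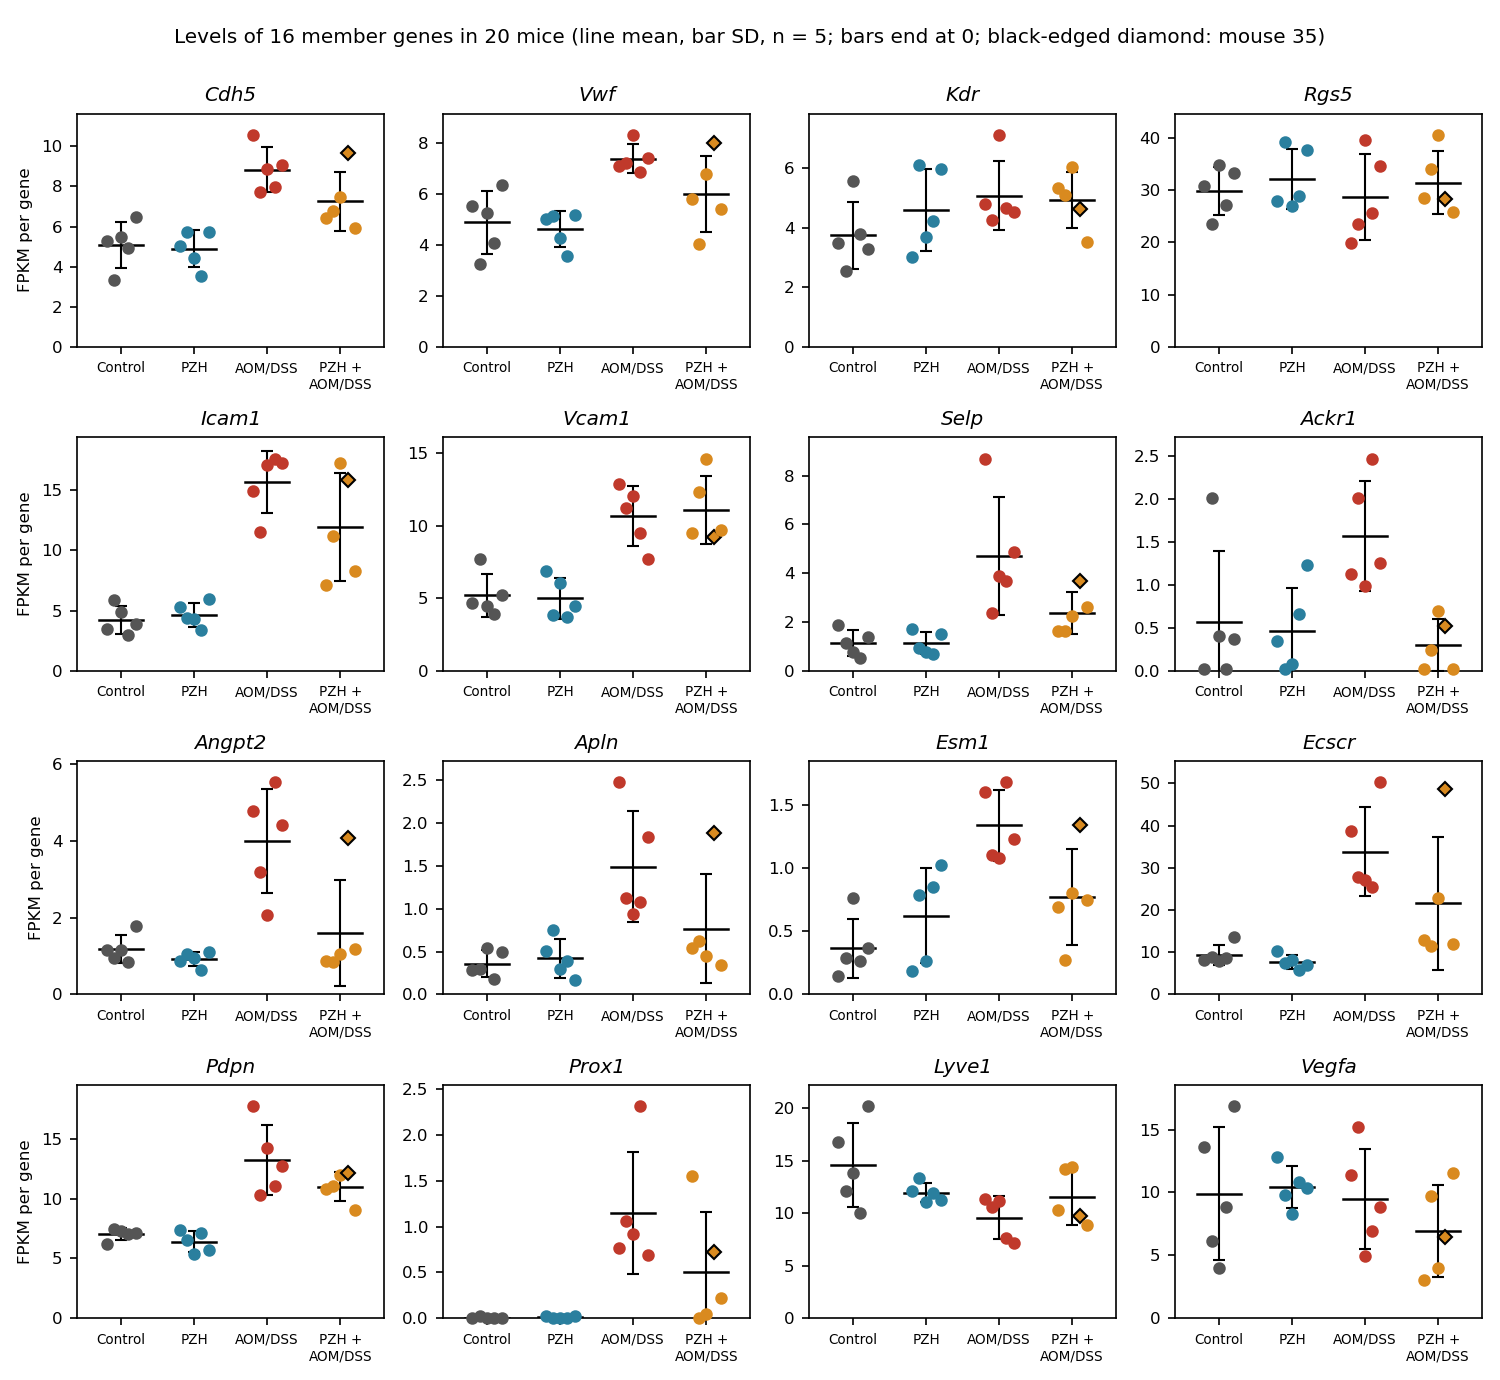
FPKM per gene (vertical axes, from 0) of 16 members in the 4 groups (horizontal axes). Points are mice, lines are means and bars are SD (n = 5, bars end at 0), and the black-edged diamond is PZH + AOM/DSS mouse 35. For Angpt2 and Apln the diamond lies in the AOM/DSS range and the other 4 mice of its group lie at 0.84 to 1.17 FPKM and 0.341 to 0.629 FPKM, while for Vcam1 and Pdpn all 5 mice lie above Control.

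The members were also compared relative to 6 endothelial reference genes, Pecam1, Cdh5, Tie1, Esam, Robo4 and Egfl7, by subtracting their mean log2(FPKM + 1) in each mouse. This mean was 2.45 ± 0.23 (SD) for Control and 2.81 ± 0.11 for AOM/DSS, and the subtraction moved the median difference of all genes between AOM/DSS and Control by -0.36. On this scale 5 members were higher in AOM/DSS and 4 were lower, beside 23.5% of all genes called in either direction. The 6 reference genes are part of the mean subtracted from them, so their own values on this scale are only a description. The subtraction shifted every gene alike, low ones such as Angpt1 included. Ecscr (1.36), Icam1 (1.34), Selp (1.00), Angpt2 (0.80) and Prox1 (0.69) were higher on the log2 scale, with adjusted P of 0.00176, 0.00226, 0.0333, 0.0361 and 0.0387. Lyve1, Cldn5, Angpt1 and Tek fell by 0.90, 0.71, 0.53 and 0.48 relative to the reference genes, with adjusted P of 0.00903, 0.0316, 0.0399 and 0.0473. The split into genes higher and lower is thus set by the reference chosen. Without Pecam1 in the reference, an alternative chosen after its values were seen, 5 members were higher and 8 lower, beside 35.6% of all genes called.

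**Figure D3:**
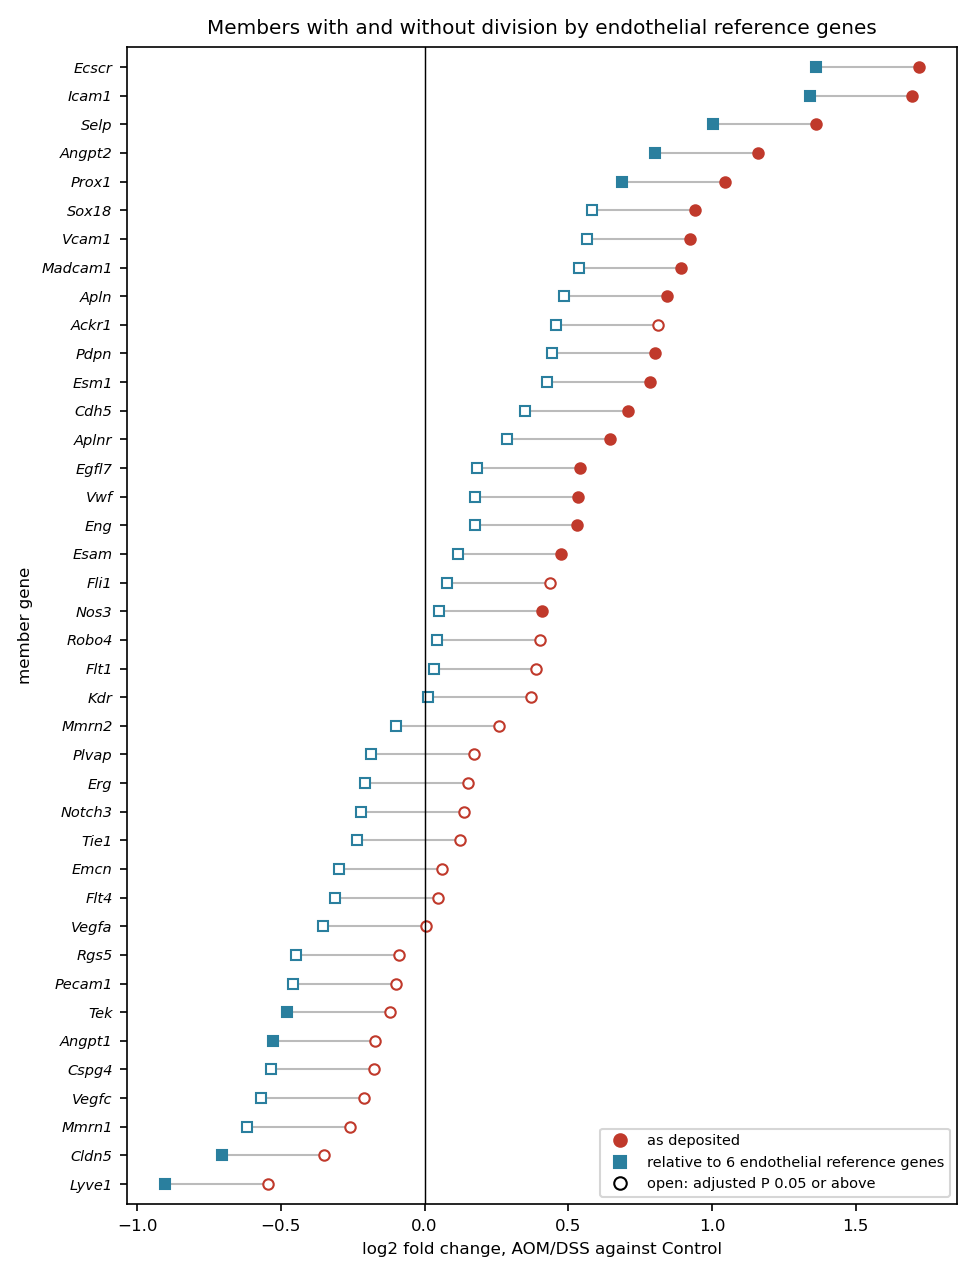
Log2 fold change of 40 tested members in AOM/DSS against Control (horizontal axis), as deposited (red circles) and relative to 6 endothelial reference genes (blue squares), with the members in order of the first value (vertical axis). Filled symbols have an adjusted P under 0.05. The squares sit 0.36 to the left of the circles, 5 of them filled to the right of 0 and 4 to the left.

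In mice without AOM and DSS, no member differed between PZH and Control by limma at an adjusted P under 0.05 among 36 tested, where 0.00645% of 15506 genes were called. At an unadjusted P under 0.05, 1 member was higher, Aplnr (0.36 ± 0.14, adjusted P = 0.545), beside 4.34% of genes, and 1 was lower, Vegfc (-0.91 ± 0.32, adjusted P = 0.533), beside 4.5% of genes. Vegfc stood at 0.246 to 0.867 FPKM in PZH and 0.540 to 3.66 FPKM in Control, with overlap. The median log2 fold change was -0.05 over the members tested, and single identity genes such as Cdh5 (-0.04 ± 0.17), Vwf (-0.05 ± 0.17), Egfl7 (0.01 ± 0.15) and Nos3 (0.02 ± 0.11) lay within their standard errors of 0.

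With AOM and DSS, no member of 41 tested was called between PZH + AOM/DSS and AOM/DSS by limma, where 0.00629% of 15888 genes were called. At an unadjusted P under 0.05, 5 members were lower and none was higher, beside 8.21% of all genes lower and 3.51% higher. They were Angpt2 (-1.01 ± 0.31), Ackr1 (-0.98 ± 0.20), Selp (-0.71 ± 0.27), Apln (-0.52 ± 0.23) and Esm1 (-0.42 ± 0.16), with adjusted P from 0.356 to 0.426. On the log2(FPKM + 1) scale, Angpt2 was the only one past the study's cutoffs of fold and unadjusted P. In the lower direction 2.01% of genes passed them. Ackr1 fell just short at -0.98, although its mean was 1.57 FPKM in AOM/DSS and 0.297 FPKM in PZH + AOM/DSS. Ackr1 was the only member whose 2 groups did not overlap, 0.0131 to 0.701 FPKM against 0.981 to 2.47 FPKM, as in 0.673% of genes in that direction. It passed the filter mainly through the AOM/DSS mice, all 5 of which reached 0.5 FPKM against 2 of 5 in PZH + AOM/DSS, so its difference and its calls are partly set by the filter. The median difference was -0.17 over the members and -0.04 over all genes. Vcam1 (0.05 ± 0.17), Eng (-0.02 ± 0.12), Kdr (-0.03 ± 0.16), Flt1 (0.00 ± 0.12) and Plvap (0.14 ± 0.09) had differences of at most 0.14 on the log2 scale.

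The calls in this comparison depended on mouse 35. Of the 18 members called higher in AOM/DSS, mouse 35 was at or above the lowest AOM/DSS mouse in 16, the exceptions being Eng and Nos3, and the same held for 22 of the 23 other members, all but Ackr1. In 6 of the 18, none of the other 4 mice of its group reached the AOM/DSS range, and in 4 all of them were above the highest Control mouse. The 18 were chosen for being high in these same AOM/DSS mice, so falling short of that range is partly set by the choice. The share over all genes was not taken. Without mouse 35, 3 of 40 members were called, all lower in PZH + AOM/DSS, beside 4.41% of 15639 genes called lower. These were Angpt2 (-1.29 ± 0.21, adjusted P = 0.0120), Ecscr (-1.15 ± 0.25, adjusted P = 0.0326) and Ackr1 (-1.05 ± 0.22, adjusted P = 0.0272). Mouse 35 was singled out with its values known, and it was the highest of its group in Angpt2 and Ecscr. Leaving it out lowers the mean of that group, so the calls of these genes are partly set by the choice of mouse. At an unadjusted P under 0.05, 14 members were then lower and none was higher, beside 14.9% of genes lower and 6.85% higher. Leaving out any other of the 10 mice gave 0 calls. Mouse 35 lay outside the other 4 mice in the summed level of 8 of 14 marker lists. Any mouse of so small a group is often its highest or lowest by chance, and the same count was not made for the other mice. It was above them for neutrophil and squamous markers, as given above, and for mesothelium (7.10 against 0.458 to 0.914 FPKM), platelet (31.8 against 15.1 to 20.4 FPKM), macrophage (257 against 113 to 209 FPKM) and enteric glia and neuron markers (14.4 against 6.78 to 9.21 FPKM). The mesothelium sum was nearly all Msln (7.05 FPKM), with Upk3b (0.0162 FPKM) and Wt1 (0.0370 FPKM) inside the range of the other 4 mice. Most of the enteric glia and neuron sum was Ret (11.7 against 1.95 to 2.51 FPKM), and the rest of that list lay below those mice. Mouse 35 was below the other 4 for colon epithelium (3537 against 4695 to 6928 FPKM) and smooth muscle (883 against 989 to 2323 FPKM). The part of these in its vessel gene levels was not tested.

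Between PZH + AOM/DSS and Control, 3 of 37 members tested were higher and none lower, beside 1.55% of genes called higher and 2.42% in either direction. They were Icam1 (1.27 ± 0.25, adjusted P = 0.0303), Vcam1 (0.97 ± 0.19, adjusted P = 0.0281) and Pdpn (0.58 ± 0.12, adjusted P = 0.0353), and in each of them the groups did not overlap, as in 4.18% of genes in that direction. Eng was also without overlap but did not pass (adjusted P = 0.0646). Angpt2 differed from Control by 0.15 ± 0.27 (adjusted P = 0.795) and Ackr1 was too low to be tested. Without Control mouse 17, 41, 48 or 50, or PZH + AOM/DSS mouse 15, no member was called, and without PZH + AOM/DSS mouse 2 or 35 there was 1. Without mouse 35 it was Vcam1 (1.03 ± 0.20, adjusted P = 0.0453), beside 0.704% of 15351 genes called higher.

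Against PZH alone, 3 of 38 members were higher in PZH + AOM/DSS, beside 1.74% of genes called higher. They were again Icam1 (1.14 ± 0.24, adjusted P = 0.0403), Vcam1 (1.02 ± 0.19, adjusted P = 0.0283) and Pdpn (0.70 ± 0.12, adjusted P = 0.0274). The 2 comparisons share the PZH + AOM/DSS mice, so they are not independent. No member was called without PZH mouse 14, 27 or 53 or PZH + AOM/DSS mouse 15, and 1 was without PZH mouse 46.

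The interaction, which asks whether the PZH difference itself differed with and without AOM and DSS, called none of 41 members by limma, where 0.0118% of 16936 genes were called. At an unadjusted P under 0.05, 6 members had a negative term and none a positive one, beside 6.92% of genes with a negative term. They were Ackr1 (-0.96 ± 0.39), Aplnr (-0.89 ± 0.29), Angpt2 (-0.84 ± 0.34), Sox18 (-0.80 ± 0.29), Esm1 (-0.65 ± 0.24) and Apln (-0.57 ± 0.27), with adjusted P from 0.358 to 0.484. Without mouse 35, Angpt2 (-1.11 ± 0.25, adjusted P = 0.0175) and Aplnr (-1.07 ± 0.25, adjusted P = 0.0275) were called, beside 2.49% of 16814 genes called lower. Mouse 35 was the highest of its group in both genes, so these calls are also partly set by the choice of mouse.

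Transcript levels were read for 3 members, as estimates that divide shared reads. For Flt1, the transcript Flt1-202 encodes the full receptor (a coding length of 3999 bases) and Flt1-203 a shorter form that lacks the kinase part (2064 bases), which acts as a soluble trap for VEGF-A. Flt1-203 made up 47.7, 36.5, 39.5, 48.3 and 49.7% of Flt1 in Control and 57.7, 48.6, 52.2, 52.1 and 58.0% in AOM/DSS. It made up 42.4, 40.5, 49.97, 49.4 and 49.2% in PZH and 46.2, 43.9, 51.96, 56.4 and 42.6% in PZH + AOM/DSS. AOM/DSS mouse 30 lay within the Control range and the other AOM/DSS mice above it, and the level of Flt1-203 in AOM/DSS differed by 0.49 ± 0.18 (adjusted P = 0.131 over 29958 transcripts). For Vegfa, the short form Vegfa-201 (a coding length of 438 bases) varied from 36.9 to 72.4% of the gene in Control and from 6.87 to 60.3% in PZH + AOM/DSS. Its level differed by -1.10 ± 0.42 between PZH + AOM/DSS and AOM/DSS (adjusted P = 0.499).

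For Ecscr, which transcript carried the level differed between mice. Ecscr-201 was 25.5, 14.03, 14.5, 16.1 and 0 FPKM in AOM/DSS and 0 FPKM in all 5 PZH + AOM/DSS mice. Ecscr-204 was 11.8, 11.1, 11.03, 4.40 and 46.7 FPKM in AOM/DSS and 10.3, 10.2, 19.9, 45.4 and 10.6 FPKM in PZH + AOM/DSS. AOM/DSS mouse 52 and PZH + AOM/DSS mouse 35, with like gene totals of 50.2 and 48.6 FPKM, both had the level on Ecscr-204. The level of Ecscr-201 differed between AOM/DSS and Control by 2.95 ± 0.82 (adjusted P = 0.0537) and that of Ecscr-204 by 0.61 ± 0.48 (adjusted P = 0.521).

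**Figure D4:**
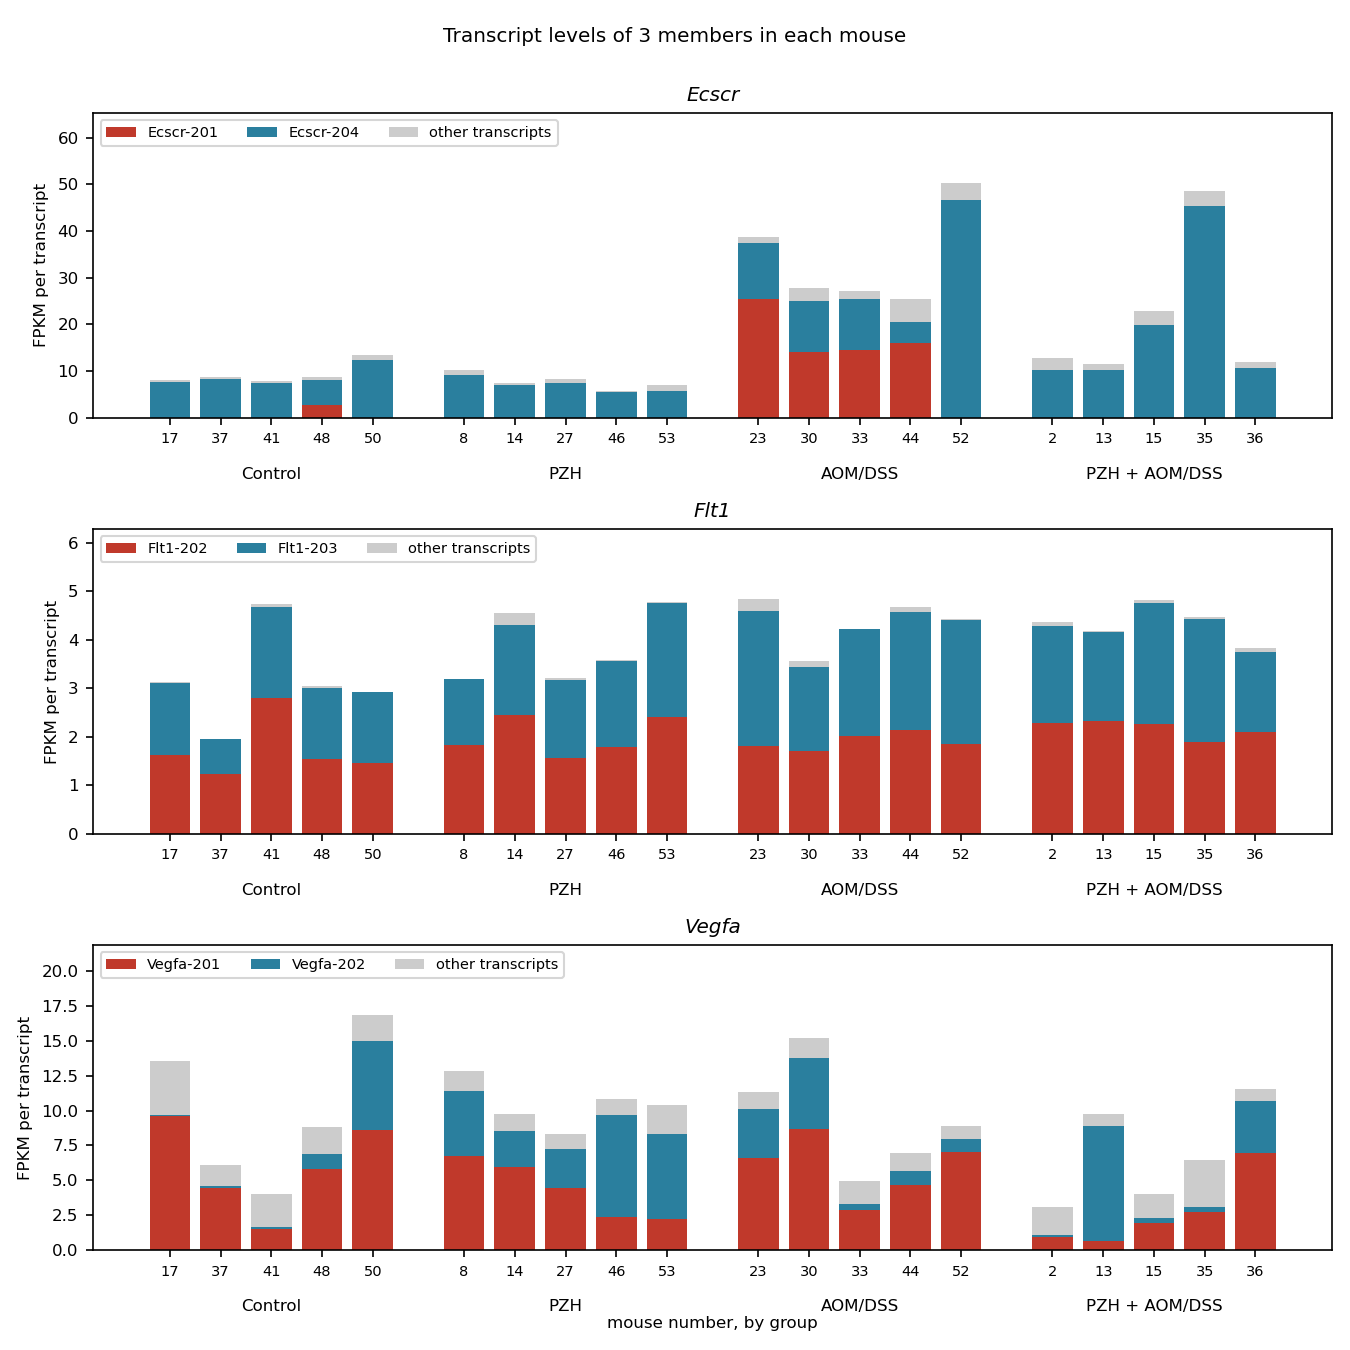
FPKM per transcript (vertical axes) of Ecscr, Flt1 and Vegfa in each mouse (horizontal axes, mouse numbers by group), stacked by transcript with the remaining transcripts in grey. Ecscr-201 (red) is seen in AOM/DSS mice 23, 30, 33 and 44 and, lower, in Control mouse 48, while AOM/DSS mouse 52 and PZH + AOM/DSS mouse 35 have Ecscr-204 (blue) at 46.7 and 45.4 FPKM.

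A further list of 69 vessel genes, none of them a member, was read in the same way. In AOM/DSS against Control, 62 were tested, 17 were higher and 1 was lower, with a median of 0.29 on the log2 scale, beside 16.4% of all genes called higher and a median of 0.09. Plat, the tissue plasminogen activator, rose by 2.66 ± 0.46 (adjusted P = 0.00232). Pgf, a VEGF family ligand of FLT1, was 0.429, 0.362, 0.555, 0.322 and 0.282 FPKM in Control and 2.67, 2.08, 2.02, 3.07 and 3.21 FPKM in AOM/DSS (1.37 ± 0.13, adjusted P = 4.49e-05). With PZH + AOM/DSS it was 0.730, 0.540, 1.17, 2.23 and 0.400 FPKM, and mouse 35 was again the high one. Sox17, an arterial transcription factor, rose by 2.02 ± 0.47 (adjusted P = 0.0111) and Notch1 by 0.95 ± 0.19 (adjusted P = 0.00481). The study also reported Sox17 as higher in AOM/DSS, among its Wnt pathway genes, and which cells made it was not tested.

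The antiangiogenic thrombospondins Thbs1 and Thbs2 were higher too, by 1.47 ± 0.36 (adjusted P = 0.0144) and 1.2 ± 0.22 (adjusted P = 0.00325). Of the 4 leukocyte integrin genes in the list, which encode partners of ICAM1, VCAM1 and MADCAM1, Itgb2 rose by 1.28 ± 0.16 (adjusted P = 0.000351), Itgal by 1.27 ± 0.19 (adjusted P = 0.00123) and Itgb7 by 1.21 ± 0.35 (adjusted P = 0.0305). The alpha-4 gene Itga4 was not called (0.55 ± 0.40, adjusted P = 0.358). Of the higher genes named here, Itgb2 and Itgal were also called between PZH + AOM/DSS and Control. The gene called lower was Cd34, a sialomucin of endothelium and stroma (-0.57 ± 0.15, adjusted P = 0.017). None of the 64 tested was called by limma between PZH + AOM/DSS and AOM/DSS, with 10 lower and 2 higher at an unadjusted P under 0.05, beside the 8.21% and 3.51% of all genes.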

How the data were processed

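The authors filtered reads of rRNA-depleted colon RNA for quality, aligned them to mm10 with HISAT2, assembled and quantified transcripts with StringTie, and deposited 1 table of FPKM values per mouse, already scaled by transcript length and library size. No counts were used here. Low values of genes with 1 transcript put each library at about 15300000 to 19400000 fragments, but only 41.3 to 46.2% of them lay within 0.02 of whole steps, so reads were not recovered. Replicates were separate mice.

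FPKM of the 96032 Ensembl transcripts found in GENCODE M21 (GRCm38) were summed per gene. The 5 pairwise comparisons and the interaction were fitted with limma 3.58.1 (R 4.3.3, empirical Bayes with trend) on log2(FPKM + 1), in genes with at least 0.5 FPKM in 5 of the mice compared, with Benjamini-Hochberg adjustment over all genes. The study's transcript test needs counts and was not repeated. Scripts were tested on simulated data. Values in every mouse were given for Pecam1, Cdh5, Kdr, Flt1, Vegfa, Angpt2, Vcam1, Icam1, Madcam1, Selp, Sele, Ackr1, Lyve1, Prox1, Rgs5, Notch3 and each other member with an adjusted P under 0.05 in AOM/DSS against Control or PZH + AOM/DSS against AOM/DSS. Of the further vessel genes, the 10 with the largest absolute log2 fold change among those called were chosen, of which 1 is not reported here. The members, lists and tests were chosen with earlier results of these data known. Alternatives were scaling, filters, pseudocount, mice in the fit, sample weights, each mouse left out and the endothelial reference genes.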

Additional observations from a re-analysis of the deposited data

Results flagged for a closer look

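Of 164 sets of 5 values (41 members in 4 groups), 13 held a mouse that stood apart, separated from the next value by more than 0.71 of the group's range, where chance gives about 8.2. Of these, 2 were PZH + AOM/DSS mouse 35, with Angpt2 at 4.07 FPKM against 0.84 to 1.17 FPKM in the other 4 mice and Apln at 1.89 FPKM against 0.341 to 0.629 FPKM.

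The others were spread over members and mice. In Control, mouse 50 was high for Cldn5 (10.8 FPKM) and Ecscr (13.6 FPKM), and mouse 37 was high for Ackr1 (2.02 FPKM) and for Prox1, at 0.0305 FPKM. In PZH, mouse 8 was the 1 mouse with Sele above 0, at 0.0626 FPKM. In AOM/DSS, mouse 52 was low for Egfl7 (8.32 FPKM), mouse 30 was low for Sele (0.183 FPKM), mouse 33 was high for Kdr (7.13 FPKM) and mouse 44 was high for Prox1 (2.31 FPKM). In PZH + AOM/DSS, mouse 13 was high for Nos3 (1.97 FPKM) and mouse 36 was low for Notch3 (1.99 FPKM).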

How the results depend on the processing

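The 18 calls in AOM/DSS against Control ranged from 12 to 19 with 1 mouse left out. Relative to the endothelial reference genes 9 members were called, 5 of the 18 and 4 others that were lower. Cdh5, Esam and Egfl7, also among the 18, are reference genes themselves and cannot be judged on this scale. Nos3 turned to -0.04 (adjusted P = 0.82) without Pecam1 in the reference. Of the 18, 12 stayed called with each mouse left out, and Vwf, Egfl7, Nos3, Madcam1, Aplnr and Prox1 did not. Prox1 missed the filter and was not tested when an AOM/DSS mouse was left out, and it stayed called without each Control mouse. The counts with 1 mouse left out ranged from 0 to 3 for PZH + AOM/DSS against AOM/DSS (3 without mouse 35), 0 to 3 against Control, 0 to 4 against PZH and 0 to 2 for the interaction (2 without mouse 35), and were 0 throughout for PZH against Control. The 3 calls against Control became 0 without a filter on low values, 0 relative to the reference genes and 1, a lower one, without Pecam1 in the reference. The 3 calls against PZH became 1 without the filter, 5 with all 20 mice in 1 model (where calls among all genes went from 2.42% to 6.41%), 0 relative to the reference genes and 1 without Pecam1. The cause of these changes was not tested. Over the 6 settings of scaling, filter, pseudocount, model and weights, 10 of the 18 stayed called, and Vwf, Egfl7, Nos3, Aplnr, Prox1, Apln, Esm1 and Madcam1 did not. Prox1, Apln and Esm1 were not tested in the setting that required 0.5 FPKM in every mouse, because Control mice were below that level. Median-of-ratios scaling lost 4 of the 18 (Vwf, Egfl7, Nos3 and Madcam1), and Lyve1 was called lower (-0.65, adjusted P = 0.0396). No paired analysis was possible because no mouse number is shared between groups. Sele was below 1 FPKM in every mouse, and Prox1 and Ackr1 were in most, so few fragments stand behind these values.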
